A study of Mus musculus with 28 samples.

Results

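Whole-brain RNA of mice at the peak of cuprizone demyelination was compared with that of naive mice, gene by gene, for all genes that could be measured. The comparison holds 7 demyelination libraries and 7 naive libraries, 14 of the 28 libraries in the series, taken by their group labels. The demyelination group was coded CPZ5 in the design and the naive group CPZ0, codes for cuprizone exposure that come without a unit. Both groups are TNFR1ff mice backcrossed onto C57BL/6, so both carry a floxed Tnfrsf1a gene, the gene of the TNF receptor TNFR1, and both served as controls for its deletion. The other 14 libraries are 7 of TNFR1ff brain in remyelination (CPZ6+1) and 7 of mgTNFR1KO brain at that same stage, where Cx3cr1-CreER and tamoxifen delete Tnfrsf1a from microglia. The sources used here give no age or sex. The labels count samples and do not state whether each came from 1 animal, so p-values measure the spread between these samples, which may be technical.

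Cuprizone is a copper chelator given in food. It kills mature oligodendrocytes, the cells that wrap axons in myelin, above all in the corpus callosum and cortex, while microglia take up the myelin debris and astrocytes become reactive. Precursor cells survive and make new oligodendrocytes, and myelin returns after the drug is withdrawn. A library of the whole brain mixes the damaged tracts with much tissue that is less affected. In such bulk RNA, fewer cells of a type and less RNA per cell cannot be told apart.

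The libraries held 1695221 to 2417151 gene counts at demyelination and 1522913 to 2150500 counts in naive brain. Levels below are given in CPM, read counts scaled to a common library size with TMM factors. QuantSeq reads a tag near the 3′ end of each transcript, so a level needs no correction for gene length. The smallest level that 3 counts could show was 1.24 to 1.77 CPM at demyelination and 1.40 to 1.97 CPM in naive brain, which covers counting error only. Markers of brain tissue were present in all 14 libraries: the neuronal gene Syt1 lay at 2150 to 2600 CPM at demyelination and 2320 to 2640 CPM in naive brain, and the astrocytic glutamate transporter Slc1a2 at 2040 to 2390 CPM and 2010 to 2360 CPM. Naive library 1 stood apart, because 1 gene without a symbol took 25.54% of its counts, against 8.36% to 10.16% in the other naive libraries. Tnfrsf1a itself is intact in both groups by genotype and rose to 27.3 ± 4.89 CPM at demyelination, against 13.4 ± 3.07 CPM in naive brain (SD, n = 7 each, log2 fold change 1.01 ± 0.18 SE, adjusted p = 0.000205 in edgeR's quasi-likelihood test, adjusted by Benjamini-Hochberg over every gene tested). That call ended in a fit with a transcript-length covariate, described with the ribosomal protein genes (0.79, adjusted p = 0.0715).

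Of 12423 genes tested, 249 differed between demyelinated and naive brain at an adjusted p under 0.05 in edgeR's quasi-likelihood test, which is 2.0% of them. Of these 249, 162 were higher at demyelination (1.30% of genes tested) and 87 were lower (0.700%). At an unadjusted p under 0.05 in the same test, 1649 of the 12423 genes passed, the base for such counts in lists below. The higher genes moved further than the lower ones: 84 of the 162 were over 2-fold higher, and 28 of the 87 were over 2-fold lower. Their median log2 fold changes were 1.01 and -0.72. The median naive level was 17.9 CPM for the higher genes, 53.9 CPM for the lower genes and 24.1 CPM for all genes. Selection bears on this order, so nothing is read from it. A gene near 0 in naive brain passes the filter on low counts only through other groups, and it can only be called higher. In 93 of the 162 the lowest demyelination library lay above the highest naive one, and in 40 of the 87 the highest demyelination library lay below the lowest naive one. Over all genes tested this was so for 113 genes above (0.910%) and 58 below (0.467%). With naive library 1 left out, 143 genes were higher and 65 lower. Demyelination library 3 bore most on the lower genes, of which 50 were called without it, while 128 were called without demyelination library 1. With library totals in place of TMM factors the split was 192 higher and 59 lower, and the median of all genes moved to 0.04. With the transcript-length covariate the split was 65 higher and 29 lower.

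**Figure D1:**
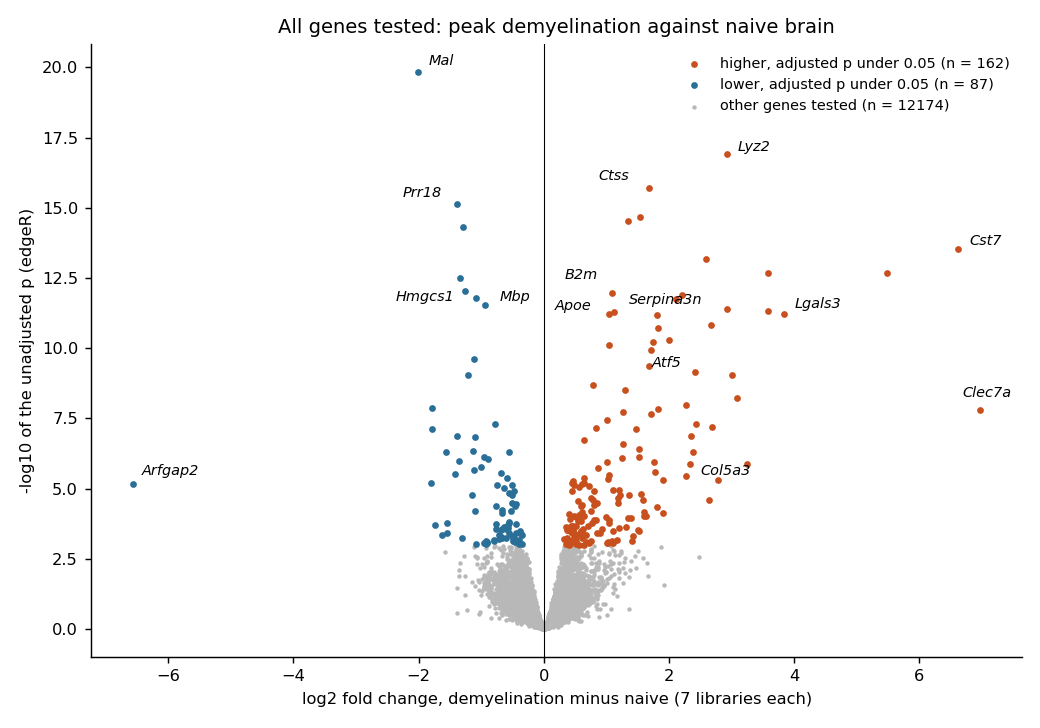
Log2 fold change of demyelination over naive (x axis) against -log10 of the unadjusted p (y axis) for each of the 12423 genes tested. Coloured points are the 162 genes higher and the 87 genes lower at demyelination, and the other genes are grey; the higher genes reach further from 0 than the lower ones.

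Counted in transcripts rather than genes, a few genes held much of the difference. The 162 higher genes gained 7400 CPM in sum and the 87 lower genes lost 6140 CPM. The 10 genes of largest loss made 69.3% of it. Apoe, the main lipid carrier of brain, made 17.1% of the gain. Mean Apoe was 2470 ± 471 CPM at demyelination and 1210 ± 105 CPM in naive brain (SD, n = 7 each). Next to it stood Sparcl1, an astrocytic matrix protein that promotes synapses, with 2730 ± 198 CPM at demyelination against 2010 ± 241 CPM in naive brain. Its log2 fold change was only 0.44 ± 0.11 (adjusted p = 0.0168, edgeR quasi-likelihood test), and without naive library 3 the adjusted p was 0.0509. The rest of the 10 largest gains were the metallothioneins Mt2 and Mt1, the cathepsins Ctsd, Ctsb and Ctss, vimentin (Vim), the acyl-CoA binding protein Dbi and the ribosomal protein gene Rpl21. The call of Rpl21 ended when any library but demyelination 4 or naive 7 was left out and with a replicate block (adjusted p up to 0.124).

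The 60 gene lists compared here hold 1015 of the tested genes and 132 of the 249 called ones. The remaining 117 called genes, 60 higher and 57 lower, were in no list. The lists differ in kind: in some most members moved, and in others, such as synaptic, mitochondrial and vascular genes, almost none did.

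**Figure D2:**
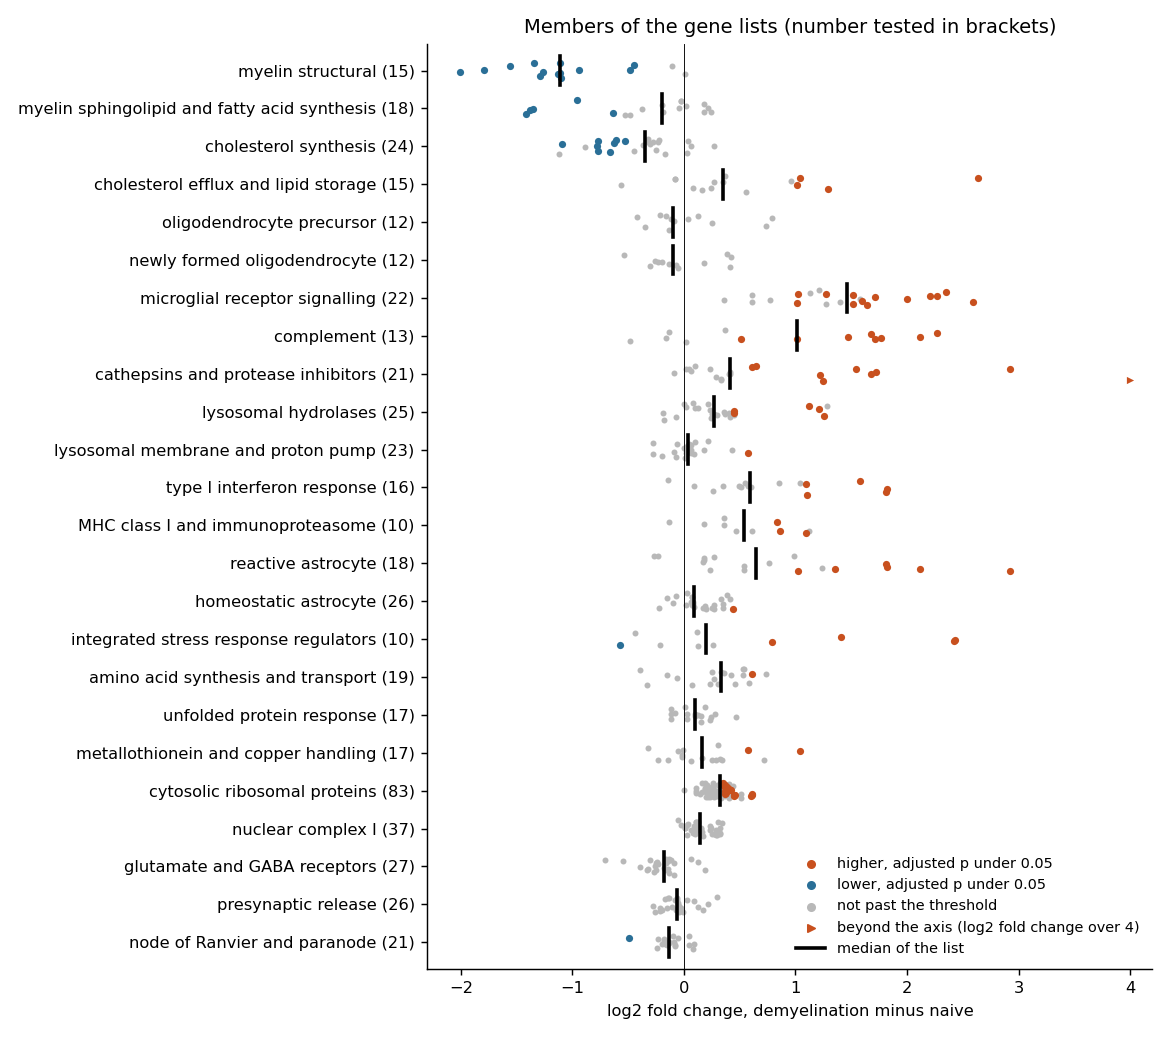
Log2 fold change of demyelination over naive (x axis) for each tested member of 24 gene lists (rows), with called members coloured by direction and the list median as a bar. The medians of the myelin structural and cholesterol synthesis lists lie left of 0, those of the microglial receptor and complement lists lie right of it, and members of the neuronal and respiratory chain lists lie close to 0; Cst7 lies beyond the axis.

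The label was checked on myelin structural genes, which fell: 13 of 15 were lower, with a list median of -1.11, and the summed level was 2860 to 3950 CPM at demyelination against 6660 to 7700 CPM in naive brain. The exceptions were Pllp (log2 fold change -0.11, adjusted p = 0.876) and the connexin 29 gene Gjc3 (0.01, adjusted p = 0.983). Gjc3 averaged 41.8 ± 4.31 CPM at demyelination and 41.2 ± 6.77 CPM in naive brain (SD, n = 7 each).

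Several genes of oligodendrocytes outside the usual myelin markers fell too, by differing amounts. Prr18, which codes for a proline-rich protein of oligodendrocytes, was at 40.0, 43.0 and 56.0 CPM (lowest, median, highest) at demyelination and at 110, 115 and 131 CPM in naive brain. The 2 groups were far apart in every library, and the log2 fold change of -1.39 ± 0.11 had the smallest p among the lower genes in no list (adjusted p = 2.34e-12). Lpar1, a receptor for lysophosphatidic acid, was at 17.4, 34.0 and 44.9 CPM at demyelination and 65.2, 75.3 and 85.6 CPM in naive brain, again without overlap (log2 fold change -1.21 ± 0.15, adjusted p = 3.27e-07). Ccp110, whose protein caps centrioles, averaged 24.2 ± 2.97 CPM at demyelination and 48.6 ± 5.18 CPM in naive brain. Prr5l, which binds the mTORC2 kinase complex, averaged 19.6 ± 4.2 CPM and 35.8 ± 5.42 CPM in the same order of groups, and the hedgehog-binding protein gene Hhip 7.79 ± 2.86 CPM and 16.8 ± 5.24 CPM (adjusted p = 0.000306, 0.000174 and 0.00629, edgeR quasi-likelihood test). The groups overlapped for Hhip, with 13.99 CPM in demyelination library 5 and 8.26 CPM in naive library 4. Qdpr, which recycles the tetrahydrobiopterin cofactor, averaged 204 ± 19.1 CPM at demyelination and 298 ± 23.3 CPM in naive brain, a smaller log2 fold change of -0.55.

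Genes of the wider lineage gave no such calls. None of 9 oligodendrocyte lineage transcription factors, 12 precursor genes or 12 genes of newly formed oligodendrocytes passed the adjusted threshold, and their medians were -0.14, -0.10 and -0.10. At an unadjusted p under 0.05 they counted 2, 1 and 5 members. The transcription factor Olig2 averaged 25.1 ± 6.34 CPM at demyelination and 18.1 ± 4.28 CPM in naive brain, with overlapping libraries (adjusted p = 0.25). Pdgfra, the growth factor receptor of precursors, averaged 23.4 ± 7.05 CPM and 25.8 ± 7.68 CPM (adjusted p = 0.804). Cdkn1b, a cell-cycle inhibitor, averaged 5.86 ± 1.86 CPM against 12.3 ± 2.96 CPM and also missed the threshold (adjusted p = 0.0946, but 0.0189 in a fit of the 14 libraries alone); it and Pdgfra were named after their values were seen.

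Myelin is rich in galactolipids, plasmalogens and cholesterol, which oligodendrocytes make for themselves. Of 18 genes of myelin sphingolipid and fatty acid synthesis, 5 were lower and none higher, with a list median of -0.20. Fa2h, which hydroxylates the fatty acids of myelin galactolipids, was at 7.78, 12.5 and 14.9 CPM (lowest, median, highest) at demyelination and 20.7, 29.3 and 42.3 CPM in naive brain. All demyelination libraries lay below all naive libraries, with a log2 fold change of -1.38 ± 0.22 (adjusted p = 3.21e-05). Ugt8a, which adds galactose to ceramide, fell by 1.35 ± 0.24 on the log2 scale, though 1 or more libraries overlapped (8.08 to 23.2 CPM against 19.8 to 57.3 CPM). The fatty acid elongase Elovl7 fell by 0.96 and Aspa, which frees acetate from N-acetylaspartate, by 1.42, both without overlap. The ceramide synthase Cers2 fell by 0.64, with an adjusted p of 0.0171 that became 0.0675 without demyelination library 6. The broadly used enzymes of fatty acid synthesis Fasn and Scd2 were not called, with log2 fold changes of -0.03 and -0.04.

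Cholesterol synthesis was lower along much of the pathway. Of 24 tested genes 8 were lower and none higher, the median was -0.35, and the summed level was 714 to 803 CPM at demyelination against 1040 to 1150 CPM in naive brain, with no overlap. Hmgcs1, which makes the HMG-CoA from which the pathway starts, was at 94.0, 122 and 140 CPM at demyelination and 202, 256 and 321 CPM in naive brain. It had the smallest p of the list, with a change of -1.09 ± 0.11 on the log2 scale (adjusted p = 1.22e-09). Lower down, Msmo1 fell by 0.78, Sc5d by 0.63 and Cyp51 by 0.53, each with no library of the 2 groups overlapping. Insig1, which holds back the sterol sensor, fell by 0.77 (adjusted p = 0.0151, edgeR quasi-likelihood test). The calls of Hsd17b7 and Stard4 ended without demyelination library 3, that of Hsd17b7 also without naive library 5 and that of Stard4 without demyelination library 6 or naive library 2 and with library totals (adjusted p up to 0.076 and 0.0732).

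Of the 2 master regulators of lipid synthesis, Srebf1 was called and Srebf2 was not. Srebf2, the regulator of cholesterol genes, averaged 28.9 ± 3.48 CPM at demyelination and 28.3 ± 3.73 CPM in naive brain (adjusted p = 0.963). Srebf1, which drives fatty acid genes and is itself a target of the sterol-sensing nuclear receptors LXR, was at 29.8, 52.9 and 63.5 CPM (lowest, median, highest) at demyelination and 15.1, 24.7 and 32.8 CPM in naive brain. Its lowest demyelination library lay within the naive range, and its log2 fold change was 1.04 ± 0.19 (adjusted p = 0.000541). Srebf1 was picked as an example with its value known. Of 15 genes of cholesterol efflux and lipid storage 4 were higher and none lower. Abca1, the pump that loads cholesterol on to apolipoproteins and another LXR target, was at 67.8, 76.6 and 91.8 CPM at demyelination and 27.0, 41.3 and 46.0 CPM in naive brain, a change of 1.01 ± 0.15 with no overlap. Lpl, the lipoprotein lipase, changed by 1.29 ± 0.17 and the apolipoprotein gene Apoc1 by 2.64 ± 0.56 (adjusted p = 1.08e-06 and 0.00287, edgeR quasi-likelihood test).

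The promoter of Hmgcs1 is shown because, of 17 cholesterol synthesis genes searched, only Hmgcs1 held the sterol element TCACNCCAC on either strand. The search covered RefSeq promoters of GRCm38.p6 that run 250 bases before to 50 after the start. The motif is in capitals in a stretch 162 to 103 bases before the start (chr13:119690189-119690248, plus strand).
Hmgcs1: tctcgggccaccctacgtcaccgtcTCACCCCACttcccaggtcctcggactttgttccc
The element was found in 1 of 6 promoters of the called genes of this list and in 1.24% of all 32851 promoters in the table. A match is a string of letters and not a bound site, and a gene without one may hold the element elsewhere.

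Phagocyte genes were prominent among the increases. In the list of microglial receptor signalling, all 22 tested members had a positive log2 fold change, 13 were called higher, and the median was 1.46 against -0.005 for all genes tested. The summed level was 340 to 491 CPM at demyelination and 128 to 165 CPM in naive brain, so that the lowest demyelination library held over 2 times the highest naive one. Mpeg1, a pore-forming protein of phagocytes, was at 31.3, 38.6 and 51.0 CPM at demyelination and 2.91, 5.09 and 11.9 CPM in naive brain. Irf8, a transcription factor that sets the microglial state, was at 18.0, 29.9 and 34.4 CPM against 5.16, 6.36 and 10.1 CPM. Both were well apart, with differences of 2.59 ± 0.23 and 2.0 ± 0.23 on the log2 scale (adjusted p = 9.18e-11 and 2.33e-08, edgeR quasi-likelihood test). The activating adaptors Tyrobp and Fcer1g changed by 2.21 ± 0.22 and 1.52 ± 0.25, and the inhibitory phosphatase Ptpn6, which counters them, by 1.6 ± 0.37. The integrin chains Itgb2 and Itgam changed by 1.71 and 1.01, and the actin-binding Coro1a by 1.02, but the calls of Itgam and Coro1a were weak. Each ended without any of demyelination 2 to 6 or naive 1, 2 or 3, that of Itgam also without naive 4 or 6 and that of Coro1a without naive 5 or 7 (adjusted p up to 0.12 and 0.0991). Both also ended with the mitochondrial share as a covariate, and that of Itgam with no filter on low counts.

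Homeostatic microglia genes leaned up in a list of 16. Of these, 13 had a positive log2 fold change, 12 had an unadjusted p under 0.05, and the median was 0.60. Called higher were 7, among them Csf1r, Fcrls and the C1q chains, and 0 were called lower. P2ry12 averaged 13.7 ± 2.47 CPM at demyelination and 19.6 ± 6.38 CPM in naive brain (adjusted p = 0.255, edgeR quasi-likelihood test). Naive library 1 held 32.6 CPM of P2ry12, against 14.1 to 21.7 CPM in the other naive libraries. Tmem119 averaged 8.29 ± 2.36 CPM and 9.35 ± 1.53 CPM (adjusted p = 0.83, same test). P2ry12 and Tmem119 are both microglial genes known for being lost in the activated state, and here neither passed the test. Several defining markers of infiltrating cells were at or near 0. Cd3e had 4 counts over all demyelination libraries and 1 over all naive libraries, Cd3d had 0 in both, Ccr2 had 4 against 0, Ly6c2 1 against 2 and S100a8 8 against 17. Others had more: the immunoglobulin heavy chain gene Ighm had 154 counts at demyelination and 209 in naive brain, the T-cell receptor gene Trbc2 94 and 79, and the border macrophage genes Mrc1 38 and 68, Pf4 44 and 28 and F13a1 40 and 28. Over whole lists, 14 lymphocyte genes summed to 15.0 to 26.3 CPM at demyelination and 18.3 to 30.1 CPM in naive brain, and 14 genes of monocytes, neutrophils and border macrophages to 5.99 to 25.2 CPM and 7.95 to 23.5 CPM. In both lists the groups overlapped, and none of the 3 members that passed the filter was called.

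Called genes in no list included some known from leukocytes. Ptprc, the CD45 phosphatase of all leukocytes, was at 6.59, 7.99 and 14.4 CPM at demyelination and 0, 1.52 and 2.82 CPM in naive brain. The motor gene Myo1f rose by 1.91, the WAVE complex subunit Nckap1l by 1.36, the integrin adaptor Fyb by 1.76 and Apbb1ip, which links Rap1 to integrins, by 1.19. Tbxas1, which makes thromboxane, rose by 1.90, and Bcl2a1b, of a family that protects leukocytes from apoptosis, by 2.78. Bcl2a1b has close copies, so its counts may hold reads of its relatives. Cybb, of the list of disease-associated microglia and named after its value was seen, codes for a subunit of the NADPH oxidase that makes superoxide, and was at 4.35 to 7.52 CPM at demyelination against 0 to 1.41 CPM in naive brain. Its groups did not overlap, and on the log2 scale it differed by 3.09 ± 0.42 (adjusted p = 1.98e-06).

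Genes with few counts were kept out of the test by the filter, and among them were signalling genes of the innate response. Without the filter, 30 more genes were called higher and 2 lower. The chemokine gene Ccl4 had 57 counts at demyelination and 0 in naive brain, so that it was at least 18.0-fold higher when naive brain was given a floor of 3 counts in sum. Its neighbour Ccl3 had 70 counts against 1, a ratio of 66.3 with an exact 95% interval of 11.5 to 2660. Ch25h, which makes the signalling lipid 25-hydroxycholesterol, had 61 counts against 4 (ratio 14.4, interval 5.36 to 54.7). The receptor Tlr2 had 72 against 9, its co-receptor Cd14 71 against 11, and the iron-binding Lcn2 54 against 6. All of these had counts in all 7 demyelination libraries, and the intervals cover counting error only. Of tested genes, Clec7a had 106 counts against 0 (at least 33.5-fold), Cst7, a cathepsin inhibitor, 186 against 1, and the integrin Itgax 178 against 3. In the other direction Arfgap2 had 1 count against 152, but 2 of the 7 naive libraries had none.

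Lysosomal genes were called mostly among soluble enzymes. Of 25 hydrolases 5 were higher, with a list median of 0.27, while of 23 membrane and proton pump genes only Cd63 was higher, with a list median of 0.04. Gusb, a glucuronidase, was at 20.4, 24.4 and 31.8 CPM at demyelination and 3.18, 10.2 and 15.0 CPM in naive brain. It was higher in every demyelination library than in any naive one. Lamp1, the main membrane protein of the organelle, averaged 369 ± 56.3 CPM at demyelination and 364 ± 36.0 CPM in naive brain (adjusted p = 0.957). The CLEAR element TCACGTGA, which the lysosomal regulator TFEB binds, was present in 2 of 20 hydrolase genes searched and in none of the 3 called ones. It was present in 4 of 19 membrane and pump genes searched but not in Cd63, and in 0.974% of all promoters. The hydrolase call of Man2b1 (log2 fold change 0.45) ended without demyelination library 3 or 4 or naive library 3 and with no filter (adjusted p up to 0.0723).

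Cathepsins are proteases of the same organelle, and 9 of 21 cathepsins and protease inhibitors were higher and none lower. Ctsd, which cleaves proteins at acid pH, was at 246, 353 and 436 CPM at demyelination and 97.5, 118 and 135 CPM in naive brain. It changed by 1.54 ± 0.13 (adjusted p = 5.22e-12), with every demyelination library above every naive one. The microglial cathepsins Ctss and Ctsh changed by 1.68 ± 0.13 and 1.72 ± 0.20, Ctsz by 1.25, Ctsb by 0.65 and Ctsl by 0.61. The complement list had 8 of 13 members higher and a median of 1.01. C4b, of the classical pathway, was at 34.4, 51.6 and 62.9 CPM against 7.40, 10.5 and 20.4 CPM, and the receptor C3ar1 at 8.2, 15.0 and 19.3 CPM against 2.42, 3.85 and 7.16 CPM. In neither did the groups overlap. The central component C3 averaged 10.7 ± 5.69 CPM at demyelination and 11.9 ± 14.8 CPM in naive brain (log2 fold change -0.13, adjusted p = 0.944). Naive library 2 held 42.7 CPM of it, against 1.41 to 15.5 CPM in the other naive libraries, and without that library the log2 fold change was 0.74 (adjusted p = 0.658), as it was 0.36 with a replicate block and 0.71 with the length covariate. C1ra, a protease of the classical pathway, averaged 8.76 ± 3.82 CPM and 6.91 ± 5.37 CPM and was not called either (adjusted p = 0.812).

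**Figure D3:**
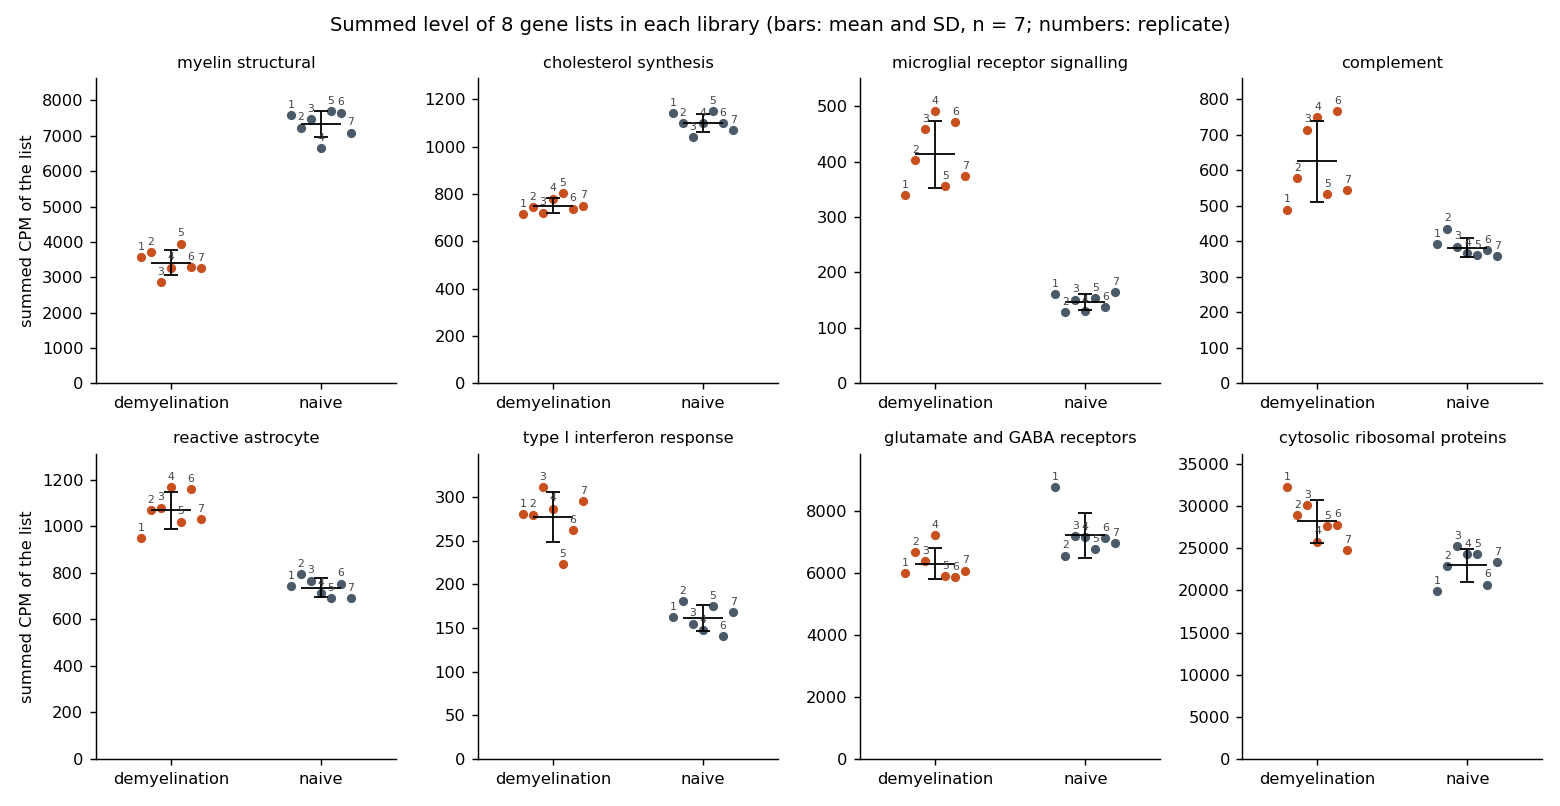
Summed CPM (y axis) of 8 gene lists in each library, with demyelination points left of naive points and bars at the group mean and SD. The myelin and cholesterol synthesis sums do not overlap and are lower at demyelination, the microglial receptor, complement, reactive astrocyte and interferon sums do not overlap and are higher, and the sums of glutamate and GABA receptors and of ribosomal proteins overlap.

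Astrocyte genes were called mainly in the reactive list. Of 18 tested reactive genes 6 were higher and none lower, with a summed level of 948 to 1170 CPM at demyelination and 691 to 796 CPM in naive brain. The intermediate filament gene Gfap was at 26.7, 44.8 and 59.9 CPM at demyelination and 8.26, 11.2 and 17.5 CPM in naive brain, and Serpina3n, a secreted protease inhibitor, at 16.9, 34.7 and 47.0 CPM against 1.41, 3.03 and 8.73 CPM. Neither overlapped, with changes of 1.82 ± 0.20 and 2.92 ± 0.30 (adjusted p = 9.07e-09 and 2.71e-09). Osmr, a receptor of the interleukin-6 family, changed by 1.81 ± 0.40. Of 26 homeostatic genes, including Slc1a2 (log2 fold change 0.02) and the glutamine synthetase gene Glul (-0.22, adjusted p = 0.226), only Sparcl1 was called. Among genes in no list, Slc14a1, a urea transporter of astrocytes, was at 19.5 to 44.3 CPM against 7.05 to 20.1 CPM (1.19 ± 0.26, adjusted p = 0.0036), and Thbs4, a matrix thrombospondin, at 7.36 to 15.0 CPM against 0.939 to 6.07 CPM (1.34 ± 0.31, adjusted p = 0.00966).

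Among 30 genes of collagen and extracellular matrix only 2 were called, and they moved in opposite directions. Col5a3, a chain of fibrillar collagen V, was at 11.3, 13 and 15.2 CPM at demyelination and 0.795, 2.58 and 4.36 CPM in naive brain. The demyelination libraries lay close together and well above all naive libraries, with a log2 fold change of 2.33 ± 0.41 (adjusted p = 0.000243). Adamtsl4, a microfibril protein, was at 0.940 to 2.57 CPM against 2.91 to 12 CPM (-1.74 ± 0.42, adjusted p = 0.0155), and its call ended without demyelination library 3 or naive library 6 (adjusted p up to 0.077). The list median was -0.07.

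**Figure D4:**
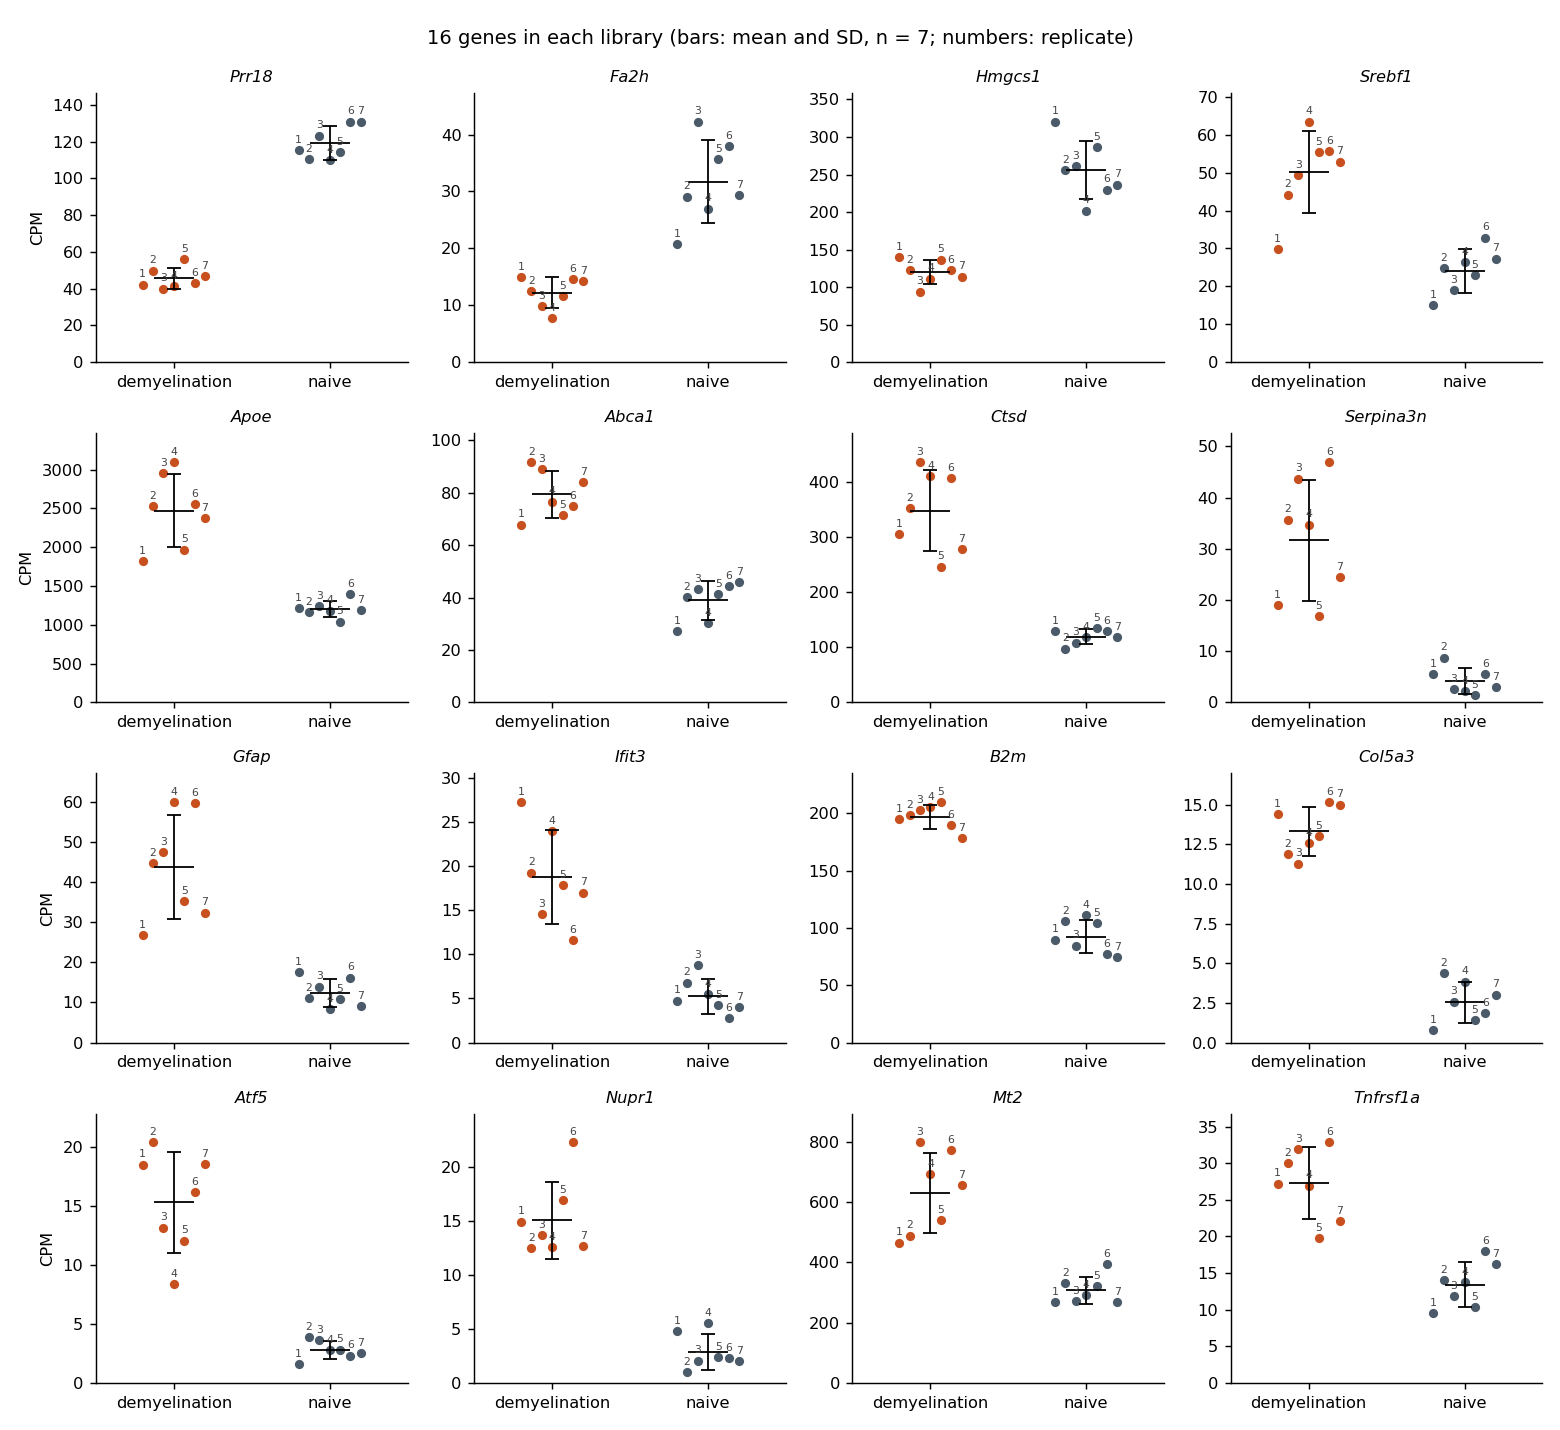
CPM (y axis) of 16 genes in each library, demyelination left and naive right, with bars at the group mean and SD. Prr18, Fa2h and Hmgcs1 are lower in all demyelination libraries, and Col5a3, Atf5, Nupr1, Serpina3n and B2m are higher in all of them than in any naive library, while the Srebf1 groups overlap.

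Interferon-response and antigen-presentation genes were higher in part. Of 16 tested type I interferon genes 5 were higher, the median was 0.59, and the summed level was 223 to 312 CPM at demyelination against 141 to 181 CPM in naive brain. Ifit3, an antiviral protein and a standard readout of the response, was at 11.6, 17.8 and 27.2 CPM at demyelination and 2.77, 4.77 and 8.77 CPM in naive brain. The groups did not overlap (1.82 ± 0.26, adjusted p = 4.34e-06). Irf9, a transcription factor of the interferon signal, was called at 1.09 ± 0.30 (adjusted p = 0.0407), but the call ended when any of demyelination 3, 6 or 7 or naive 2, 3, 4, 6 or 7 was left out (adjusted p up to 0.146). B2m, the invariant chain of MHC class I, was at 179, 198 and 210 CPM against 74.8, 89.9 and 111 CPM. All 7 demyelination libraries were higher than any naive one (1.09 ± 0.11, adjusted p = 1e-09), and the heavy chain genes H2-D1 and H2-K1 changed by 0.86 and 0.83. These heavy chains are near-identical copies, so reads may be split between them. None of 3 MHC class II genes was called.

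The promoter of Ifit3 is shown because it holds 3 copies of the interferon-response core GAAANNGAA, all in reverse orientation, and was called. The promoter of Ifit1 also holds 3 copies in that orientation, and Ifit1 was not called (log2 fold change 0.49, adjusted p = 0.65). Those of Ifit3 are in capitals in a stretch 180 to 69 bases before the start (chr19:34583349-34583460, plus strand, RefSeq GRCm38.p6).
Ifit3: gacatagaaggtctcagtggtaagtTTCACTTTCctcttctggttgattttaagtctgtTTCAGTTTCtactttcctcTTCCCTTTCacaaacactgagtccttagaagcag
The core was found in 6 of 13 genes searched in the list and in 2 of the 5 called genes, Ifit3 and Trim30a. Of all promoters, 8.56% held it. Trim30a was called at 1.1 ± 0.31 (adjusted p = 0.0469), and not without any of demyelination 1, 2, 3, 6 or 7 or naive 1 to 5 (adjusted p up to 0.12).

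Several members of the integrated stress response list were called, and none of the unfolded protein response list was. This contrast depends on how the lists were drawn, because Ddit3 was counted in the first list only. The integrated stress response slows translation when amino acids run short or mitochondria or the endoplasmic reticulum are disturbed, and it acts through the transcription factors ATF4, ATF5 and CHOP. Of 10 tested regulators 4 were higher and 1 lower. Atf5 was at 8.38, 16.2 and 20.4 CPM at demyelination and 1.59, 2.75 and 3.88 CPM in naive brain, and Nupr1, a small stress-induced chromatin protein, at 12.5, 13.6 and 22.2 CPM against 0.970, 2.31 and 5.50 CPM. Neither overlapped, and their changes were 2.42 ± 0.30 and 2.43 ± 0.36 (adjusted p = 2.74e-07 and 1.35e-05). Ddit3, the gene of CHOP, was at 22.2 to 36.9 CPM against 12.7 to 19.2 CPM, a change of 0.79 ± 0.17. Atf4 averaged 49.3 ± 13.4 CPM and 41.0 ± 5.91 CPM (adjusted p = 0.549), a transcript whose control is known to lie mainly in translation. The unfolded protein response list had 0 of 17 called, 1 member at an unadjusted p under 0.05, and the chaperone Hspa5 at a log2 fold change of 0.23 (adjusted p = 0.276). Heat shock genes had 0 of 16 called and 3 at an unadjusted p under 0.05.

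Amino acid genes, which ATF4 is known to drive, gave a single call among 19. Slc7a11, the cystine importer, was at 39.1, 47.5 and 62.7 CPM at demyelination and 24.8, 31.9 and 47.7 CPM in naive brain, and the groups overlapped (0.61 ± 0.16, adjusted p = 0.034). Its call ended without any of demyelination 3, 4, 5 or 6 or naive 2, 3, 5, 6 or 7, with adjusted p up to 0.1. In this list 10 members had an unadjusted p under 0.05 and the median was 0.33. Asns, the asparagine synthetase, averaged 70.0 ± 9.63 CPM at demyelination and 72.9 ± 6.36 CPM in naive brain (adjusted p = 0.892), and the serine-synthesis gene Phgdh 53 ± 12.3 CPM and 39.6 ± 7.50 CPM (adjusted p = 0.172). Eif4ebp1, a translation repressor counted with the regulators above, was called at 1.41 ± 0.39, and that call ended without any of demyelination 3 to 7 or naive 1, 2, 5 or 6, or once the mitochondrial share entered the fit (adjusted p up to 0.116). Ddit4, an inhibitor of mTORC1, fell by 0.57 ± 0.14, with an adjusted p of 0.0155 that passed 0.05 without demyelination library 6 and with library totals.

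The CARE element TGATGNAA, bound by ATF4 with CEBP partners, is shown in 2 of these promoters (RefSeq GRCm38.p6, minus strand), in capitals. For Nupr1 the stretch lies 135 to 76 bases before the start (chr7:126625546-126625605), and for Slc7a11 91 to 15 bases before it (chr3:50443628-50443704), where 2 copies lie in opposite orientation.
Nupr1: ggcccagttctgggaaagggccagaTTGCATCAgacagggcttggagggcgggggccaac
Slc7a11: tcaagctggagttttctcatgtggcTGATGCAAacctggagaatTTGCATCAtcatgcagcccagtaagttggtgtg
Among regulators 3 of 9 genes searched and 1 of the 4 called genes searched held the element, and among amino acid genes 4 of 16, against 3.97% of all promoters.

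Metal, redox and growth-arrest genes changed in a few members each. Cuprizone binds copper, and metallothioneins bind copper and zinc: Mt2 was at 466, 657 and 798 CPM at demyelination and 268, 292 and 395 CPM in naive brain, without overlap (1.04 ± 0.12, adjusted p = 3.4e-08), and Mt1 changed by 0.57 ± 0.11. Mt3, the neuronal and astrocytic form, averaged 75.5 ± 11.8 CPM against 45.5 ± 9.74 CPM and missed the threshold (adjusted p = 0.081). It passed with no filter, in the 14 libraries alone and with a replicate block (adjusted p = 0.00321, 0.00179 and 0.0366, edgeR quasi-likelihood test). The other 14 tested genes of metallothionein and copper handling were not called. The metal-response core TGCNCNC was in the promoters of both called genes, but also in 51% of all promoters. Nfe2l2, the gene of the oxidative-stress regulator Nrf2, was at 23.7 to 39.6 CPM at demyelination and 13.6 to 22.7 CPM in naive brain (0.81 ± 0.18, adjusted p = 0.00403), while only Prdx6, a peroxidase, and Slc7a11 of 22 Nrf2-linked genes were higher. Of the ferritin chains, which store iron, the light chain Ftl1 rose by 0.54 ± 0.11 to 103 to 153 CPM against 73.7 to 93.0 CPM, and the heavy chain Fth1 was at 0.02 ± 0.10 (adjusted p = 0.954). The cell-cycle inhibitor Cdkn1a was called at 0.77 ± 0.19 (adjusted p = 0.014), alone among 15 p53 targets.

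Called ribosomal protein genes rose by a little. All 83 tested had a log2 fold change of 0 or above, the median was 0.32, 65 had an unadjusted p under 0.05, and 17 were called higher. Rpl10 was at 258, 284 and 334 CPM at demyelination and 191, 211 and 227 CPM in naive brain, without overlap (0.46 ± 0.09, adjusted p = 0.00079), and Rps15a and Rpl10a changed by 0.45 and 0.61. The summed level was 24800 to 32300 CPM at demyelination and 19900 to 25300 CPM in naive brain, so the groups overlapped slightly. The number of calls was unsteady: leaving out 1 library gave 8 to 25, DESeq2 gave 31, and library totals gave 24.

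Transcript length moved with this result. Over 5 equal classes of genes by their longest annotated transcript, the median log2 fold changes were 0.077, 0.025, -0.01, -0.03 and -0.076 from the shortest to the longest. Within libraries, the median deviation of the shortest class minus that of the longest was -0.005, 0.153 and 0.307 (lowest, median, highest) at demyelination and -0.062, 0.002 and 0.074 in naive brain, so the groups overlapped but most demyelination libraries lay above. Ribosomal protein transcripts have a median of 1059 bases, called higher genes 2529, called lower genes 3802 and all tested genes 3544. The 2412 genes of the shortest class that are no ribosomal protein genes had a median of 0.067, with 48 called higher and 14 lower. With this length difference as a covariate in the fit, an alternative added after the data were seen, no ribosomal protein gene was called and their median was 0.17, and 65 genes were higher and 29 lower in all. In that fit 11 of the 13 myelin calls, 9 of the 13 receptor signalling calls and 5 of the 6 reactive astrocyte calls were still made, but 3 of the 8 cholesterol synthesis calls and 2 of the 5 interferon calls. The covariate itself differs between the groups, so a call can end in that fit through lost precision as well as through a smaller change. Slc7a11 went from 0.61 to 0.66 and Sox11 from -0.39 to -0.45, while Insig1 went from -0.77 to -0.43. A call that ended there does not by itself mark a gene as dependent on length. Of 102 called genes named here, 49 were not called in the length fit (adjusted p 0.0569 to 0.848), all 49 with the same sign. Of phagocyte, lysosomal and immune genes these were Itgam, Coro1a, Ptpn6, Nckap1l, Tbxas1, Man2b1, Cd63, Ctsl, Ctsz, H2-D1, H2-K1, Irf9, Trim30a, Csf1, Spp1 and Tnfrsf1a. Of lipid and oligodendrocyte genes they were Cers2, Cyp51, Insig1, Hsd17b7, Stard4, Apoc1, Dbi, Ccp110 and Hhip. Of astrocyte, matrix, neuronal and axonal genes they were Sparcl1, Slc14a1, Thbs4, Adamtsl4, Ptprd, Cadm2, Nrxn3, Sox11 and Cntn2. The rest were Unc5b, Mt1, Prdx6, Ftl1, Nfe2l2, Slc7a11, Ddit4, Eif4ebp1, Slc2a1, Igfbp3, Zbtb16, Rpl10, Rpl10a, Rpl21 and Rps15a. By library the length difference and the sum of cytosolic ribosomal proteins did not rank alike at demyelination: the highest sum, 32300 CPM, was in library 1 with a difference of 0.138, the largest difference, 0.307, was in library 3 with 30100 CPM, and library 7 had the lowest of both, -0.005 and 24800 CPM. The part of transcript length in the ribosomal result was not otherwise tested.

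**Figure D5:**
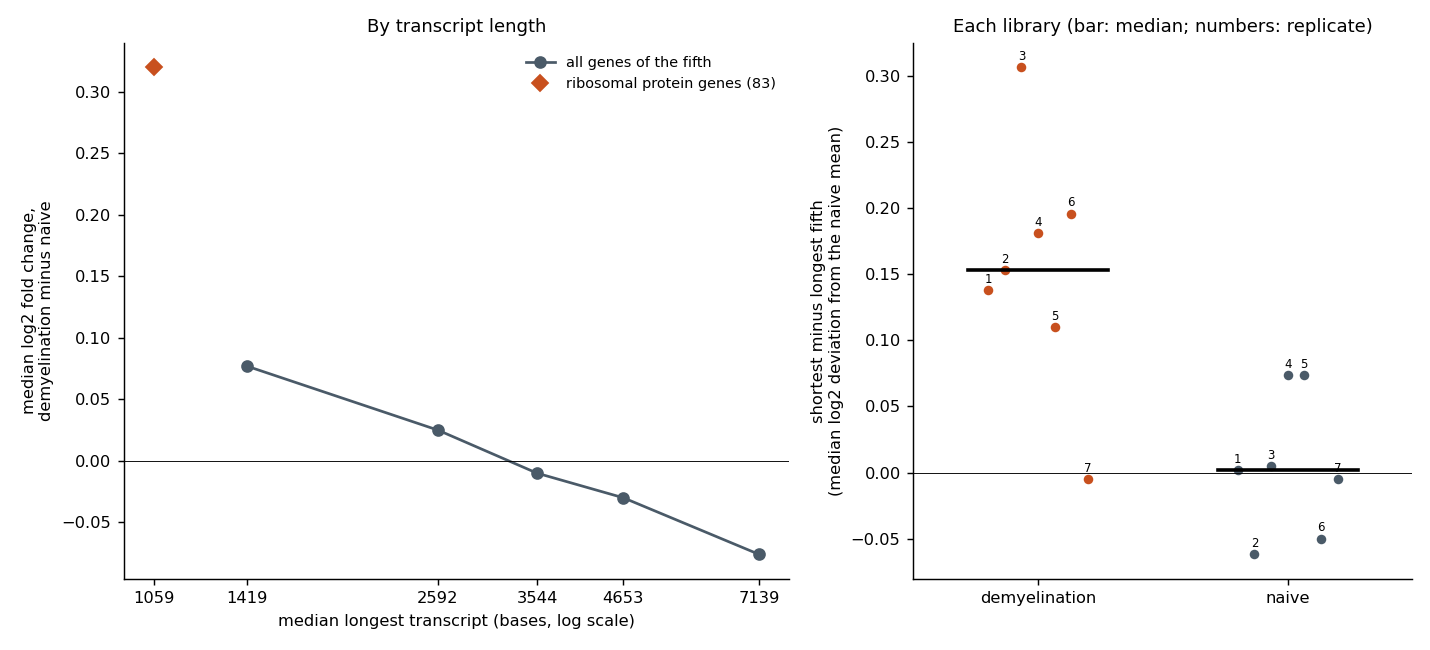
Left, median log2 fold change of demyelination over naive (y axis) by 5 classes of longest transcript length in bases (x axis, log scale), with the ribosomal protein genes as a separate point at 1059 bases. Right, the shortest-minus-longest difference for each library, demyelination left of naive; the classes run down to -0.076 in the longest, and most demyelination libraries lie above the naive ones.

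Neuronal lists moved little. None of 26 presynaptic, 27 glutamate and GABA receptor, 14 monoamine and acetylcholine, 21 neuropeptide or 21 immediate early genes was called by edgeR. At an unadjusted p under 0.05 these lists counted 3, 7, 3, 2 and 1 members, against 1649 of all 12423 genes tested. The receptor subunits leaned down: 24 of 27 had a negative log2 fold change, the median was -0.18, and the summed level was 5850 to 7220 CPM at demyelination and 6550 to 8770 CPM in naive brain, where naive library 1 was the highest. Ptprd, a synaptic adhesion phosphatase, was called at 196 to 270 CPM against 274 to 355 CPM (-0.51 ± 0.10, adjusted p = 0.00201, edgeR quasi-likelihood test). Unc5b, a netrin receptor, was called at 35.2 to 54.9 CPM against 53.9 to 84.6 CPM (-0.75 ± 0.15, adjusted p = 0.00104, same test). Whole-brain RNA does not show which cells held the change in Unc5b. Ptprd and Unc5b were named after their values were seen. Of the adhesion genes with large CPM losses, Cadm2 fell by 0.44 and Nrxn3 by 0.35. Without demyelination library 3 or 7 or naive library 1 the call of Cadm2 ended (adjusted p up to 0.0687), and that of Nrxn3, at an adjusted p of 0.0493, ended without any of demyelination 2 to 7 or naive 1, 2, 3, 5 or 7 and in 5 other settings (up to 0.173). Sox11 among axonal genes and Cntn2 at the node of Ranvier were each called in their lists with adjusted p of 0.038 and 0.0347, and neither was called with library totals or no filter. Both calls also ended without any of demyelination 2, 3 or 6 or naive 1, 2, 3 or 7, that of Sox11 also without demyelination 4 or 7 or naive 4 or 5 and in the 14 libraries alone, and that of Cntn2 without demyelination 1 or 5 or naive 6 (adjusted p up to 0.117 and 0.106).

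Energy genes shifted little. Of 37 nuclear genes of complex I 35 had a positive log2 fold change, the median was 0.14, none was called and 10 had an unadjusted p under 0.05. Complexes III to V had a median of 0.11 over 34 genes, with none called and 3 at an unadjusted p under 0.05. With the length covariate the medians were 0.02 and -0.04. The 13 mitochondrially encoded genes had a median of -0.04 with none under 0.05. Slc2a1, the glucose transporter of brain vessels and glia, was the only called gene of 24 in glycolysis and lactate, at 120, 142 and 172 CPM against 76.3, 103 and 131 CPM, with overlap (0.48 ± 0.11, adjusted p = 0.00844).

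Among trophic, clock, glucocorticoid and cytokine signalling lists, the glucocorticoid response had the most calls for its size. Of its 12 tested genes 4 were higher, namely Mt1, Mt2, Cdkn1a and Zbtb16, and Ddit4 was lower, with a list median of 0.14. Csf1, the growth factor that sustains microglia, was at 20, 32.9 and 46.0 CPM at demyelination and 13.4, 19.4 and 21.7 CPM in naive brain (0.85 ± 0.18, adjusted p = 0.00351), and 2 further trophic genes of 19, Igfbp3 and Spp1, were called at 1.5 and 1.17. Those calls ended without any of demyelination 6 or naive 2, 3 or 6 for Igfbp3 and of demyelination 4, 5 or 6 or naive 1, 3 or 7 for Spp1, which DESeq2's Wald test did not call either (adjusted p up to 0.108 and 0.114). Igf1 averaged 19.0 ± 1.98 CPM and 16.6 ± 5.19 CPM (adjusted p = 0.696). Bhlhe41, a repressor of the circadian clock, was at 85.8 to 124 CPM against 56.5 to 82.4 CPM, without overlap (0.60 ± 0.13, adjusted p = 0.00418), alone among 18 clock genes. Zbtb16, a glucocorticoid-induced transcription factor, was at 15.0 to 28 CPM against 4.4 to 11.9 CPM (1.05 ± 0.26, adjusted p = 0.014, and 0.05 without demyelination library 7). Of 17 genes of TNF and NF-kB signalling Tnfrsf1a alone was called, though not with the length covariate, and none of 16 TGF-beta and BMP genes was, with 5 at an unadjusted p under 0.05.

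Markers of vessels, meninges, choroid plexus and brain regions differed little between the groups. Among 22 endothelial genes only Slc2a1 was called, and none was among 14 mural and meningeal, 8 choroid plexus, 12 cerebellar, 11 striatal and forebrain and 10 hypothalamic and olfactory genes. At an unadjusted p under 0.05 these counted 3, 3, 2, 1 and 1. The summed cerebellar level was 1360 to 1780 CPM at demyelination and 1460 to 1840 CPM in naive brain, and that of choroid plexus 1030 to 1860 CPM and 900.0 to 1480 CPM. The red blood cell sum was 487 to 606 CPM and 452 to 637 CPM.

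The demyelination libraries differed among themselves, and not every gene group ranked them alike. The first principal component held 20.4% of the variance of the 14 libraries, and the groups overlapped on it. Naive libraries ran from -20.5 to 1.3, and demyelination 1 (-8.58) and 5 (-0.45) lay within that range. Demyelination 4 (25.4) and 6 (25.8) lay farthest from it. The microglial receptor signalling sum was lowest in demyelination 1 (340 CPM) and 5 (355 CPM) and highest in 4 (491 CPM). The myelin sum was lowest in demyelination 3 (2860 CPM) and highest in 5 (3950 CPM). The ribosomal protein sum, by contrast, was highest in demyelination 1 (32300 CPM). The interferon sum was lowest in demyelination 5 (223 CPM) and highest in 3 (312 CPM). Even the demyelination library nearest to naive on these 3 lists of myelin, receptor signalling and interferon genes lay outside the naive range of each.

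The same genes were followed into remyelination with and without microglial TNFR1. These comparisons use the same naive libraries, so their values are set side by side and not counted as support. Against naive brain, 78 genes were called in TNFR1ff remyelination (0.628%) and 403 in mgTNFR1KO remyelination (3.24%). Some genes that rose at demyelination had later averages nearer to their naive than to their demyelination mean: Atf5 averaged 2.78 CPM in naive brain, 15.3 CPM at demyelination, 3.60 CPM in TNFR1ff remyelination and 5.13 CPM in mgTNFR1KO remyelination, Nupr1 2.86, 15.0, 3.67 and 4.37 CPM, and Col5a3 2.55, 13.3, 1.95 and 2.03 CPM. Others had later averages nearer to their demyelination mean. C4b averaged 11.2, 49.3, 47.2 and 46.3 CPM in the same order, Apoe 1210, 2470, 2090 and 2370 CPM, and Prdx6 125, 174, 171 and 185 CPM. The myelin gene Mbp averaged 3060, 1590, 3160 and 3490 CPM, Prr18 119, 45.6, 86.5 and 93.6 CPM, and Hmgcs1 256, 120, 173 and 166 CPM. B2m averaged 92.5, 197, 116 and 159 CPM. Tests between stages were not part of the comparison made here.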

How the data were processed

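RNA was taken from whole brain with TRIzol and made into libraries with the QuantSeq 3′ mRNA-Seq FWD kit, per the labels' protocols. The authors deposited RSEM expected counts per gene for each library, per the file headers, and between 96.6% and 97.7% of the values were whole numbers within 0.005. Per the submitters' processing notes, the tools were cutadapt, FastQC, RSEM, STAR and edgeR and the build GRCm39, with no versions. Expected counts were rounded. Symbols came from GENCODE M21 (GRCm38) by unversioned Ensembl ID and matched 52081 of 55414 genes, and genes without a symbol held 10.76% of counts. Promoters came from RefSeq (GRCm38.p6).

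Genes were kept by filterByExpr. A quasi-likelihood model with 4 group means was fitted in edgeR 4.0.16 (R 4.3.3) to all 28 libraries with TMM factors, and p-values were adjusted by Benjamini-Hochberg over 12423 genes. Each library was taken as 1 replicate. Libraries of a group differed by more than counting error (chi-square per degree of freedom at least 2.6), which cannot show that they came from separate animals. Intervals of count ratios are exact 95% intervals. The alternatives were other scalings, DESeq2 1.42.0, no filter, the 14 libraries alone, covariates, a replicate block, glmTreat and leaving out libraries. The fit was tested on simulated data.

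The comparison and the gene lists were chosen with earlier results of these data known. Genes named are, per list, up to 4 called members of smallest p (2 where none was called), the 20 higher and 20 lower called genes of largest fold change in no list, the 10 of largest CPM difference in each direction, Tnfrsf1a, and called genes at 0 in a group. Other list members and genes are named as examples after their values were seen. Some genes are not reported here.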

Additional observations from a re-analysis of the deposited data

Results flagged for a closer look

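The levels of the genes named above were checked in each group of 7 for 1 library far from the rest, by Dixon's criterion. Of 264 groups checked 19 held such a library, and chance flags about 1 in 20. Naive library 1 was met most often. Its share of counts in the most abundant gene was 25.54%, against 8.36% to 10.16% in the other naive libraries. It was highest of the naive group for Cadm2 (637 CPM, others 393 to 496 CPM), P2ry12 (32.6 CPM, others 14.1 to 21.7 CPM) and Itgax (1.59 CPM, others 0 to 0.485 CPM). It was lowest for Mbp (2420 CPM, others 3040 to 3460 CPM), Rpl10a (44.5 CPM, others 82.8 to 110 CPM), Dbi (349 CPM, others 423 to 471 CPM) and Mrc1 (0.795 CPM, others 4.4 to 7.05 CPM).

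Naive library 2 was the highest of its group for C3 (42.7 CPM, others 1.41 to 15.5 CPM), C4b (20.4 CPM, others 7.40 to 12.6 CPM) and H2-K1 (30.6 CPM, others 12.9 to 20.1 CPM). Tmem119 was highest in naive library 3 (12.4 CPM, others 7.71 to 9.70 CPM) and Cst7 in naive library 5 (0.470 CPM, others 0).

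Among demyelination libraries, Itgax was highest in library 4 (21.6 CPM, others 10.3 to 14.1 CPM). Library 5 was highest for Hhip (14 CPM, others 5.14 to 7.58 CPM) and Arfgap2 (0.482 CPM, others 0). Bcl2a1b was highest in library 2 (14.2 CPM, others 4.35 to 8.38 CPM), Ptprd was highest in library 1 (270.0 CPM, others 196 to 224 CPM), and Ctsh was lowest in library 7 (14.2 CPM, others 26 to 33.9 CPM). No explanation was tested for any of these.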

How the results depend on the processing

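Leaving out 1 library gave 122 to 184 higher genes and 50 to 128 lower genes, with 69 to 91 higher by over 2-fold, and the extremes of the lower count came without demyelination libraries 3 and 1. With a replicate block 140 genes were lower and 202 higher. With the transcript-length covariate, chosen after seeing the data, 65 were higher, 29 lower and 49 over 2-fold higher, and the uncalled Herpud1 (-0.01) and Trbc2 (-0.12) changed sign; the cause was not tested. DESeq2 called 221 higher and 121 lower, library totals 192 and 59, no filter 211 and 89, the 14 libraries alone 174 and 112, and the fit without naive 1 and knockout 1 180 and 100. Tested against a 1.2-fold change, 83 were higher and 32 lower. Of the 249 calls, 151 were made under every alternative but the length covariate and the 1.2-fold test, 108 higher and 43 lower. Same-numbered libraries of the 2 groups deviated together with r between -0.061 and 0.328, and numbers 2, 5 and 6 correlated best with their own. For number 2 that r was only 0.043, and naive 6 was also the best match of demyelination 3, 4 and 7. Whether the replicate numbers pair the samples or mark a shared batch cannot be told from these values. Depth limits genes under about 2 CPM, which 3 counts could not show in every library.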
